A study of Caenorhabditis elegans with 6 samples.

Results

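The cuticlins and their relatives are secreted proteins of the apical extracellular matrix, the layer that epidermal and other epithelial cells deposit on their outer face and that becomes the cuticle. Members were taken by gene symbol alone: the cut, cutl (cuticlin-like) and noah genes together with dyf-7, let-653 and fbn-1. The rule found 40 genes among the 20189 protein-coding genes counted, of which 6 were cut genes, 29 cutl genes and 2 noah genes. Messenger RNA was counted in 6 samples of whole Caenorhabditis elegans hermaphrodites at L4, the last larval stage. One group spent 3 days on plates with 500 µg/ml cycloheximide (CHX), which stops ribosomes from moving along the message, and the other spent 2 days on plates without it. Both groups (3 samples each) were started from synchronized eggs, were kept at 23 °C and were rpl-36A(P55Q)/mIn1 heterozygotes. The P55Q change is in a protein of the large ribosomal subunit, and mIn1 is a balancer of chromosome II, so animals of both groups carry both. Drug and age change together and cannot be told apart. Nothing in the labels says that the replicates are separate cultures, and a p-value given here covers no more than the spread among the 6 samples, part or all of which may be technical.

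As background, most members carry a zona pellucida (ZP) domain, through which secreted proteins assemble into filaments or sheets, and many are thought to be released from the membrane by a furin-type protease. Cuticlins were first defined as what is left of the cuticle after detergent and reducing agents have dissolved the collagens, and CUT-2 is held in that residue by crosslinks between tyrosines. CUT-2 has repeats and no ZP domain, so it is a cuticlin by its place in the insoluble residue and not by family. A new cuticle is made at every larval stage, and many matrix genes are transcribed in a short part of each molting cycle.

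On CHX the most abundant member, cut-2, fell 3.01-fold. A second and much less abundant member, cut-4, was also lower, with a call that 1 of 14 alternative settings kept. It had enough counts to be tested only through the samples without CHX, where it was high. The paired matrix genes noah-1 and noah-2 did not pass the test, and their replicates without CHX were widely spread. The other 36 members had too few counts to be tested. Of those, 13 had no count in any sample, among them cut-1, cut-3 and cut-6.

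The libraries were shallow, with 385500, 391235 and 414781 counts in the CHX samples and 352510, 360924 and 313767 without CHX, and 94.1% of all counts fell in the 5641 genes tested. A level in CPM is a count relative to the library's effective size, which is the sum over tested genes multiplied by the TMM scaling factor. The 3 counts used as the floor of detection correspond to between 7.22 and 10.6 CPM in a library. With edgeR's quasi-likelihood test, 25.2% of the tested genes were called at an adjusted p under 0.05, 14.9% lower and 10.3% higher on CHX. The log2 fold change of all tested genes had a median of 0.02. Members together took 219, 192 and 253 counts in the CHX samples and 462, 446 and 327 without CHX. Their summed level was 559 ± 56.5 CPM on CHX and 1345 ± 180 CPM without it (SD, n = 3 each), and these sums did not overlap. The gene cut-2 alone made up 57.1% ± 1.10 of the member counts on CHX and 71.4% ± 7.15 without it (SD, n = 3 each). The 39 members left when cut-2 is set aside summed to 251, 207 and 262 CPM on CHX and to 357, 502 and 293 CPM without it, so these sums did not overlap either. In bulk samples of whole animals, fewer cells of a type and less RNA per cell cannot be told apart.

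The gene cut-2 (WBGene00009983) lies on chromosome V from 13414902 to 13416121 on the plus strand in WBcel235 coordinates, with 2 coding exons and a coding length of 645 bases. It had 123, 112 and 144 counts in the CHX samples and 353, 282 and 244 counts without CHX. In CPM these were 321, 290 and 346 on CHX against 1157, 864 and 863 without it, and the groups were far apart, with the highest CHX sample well under the lowest sample without the drug. Its log2 fold change was -1.59 (SE 0.16), a 3.01-fold lower level on CHX, with an adjusted p of 3.87e-08 in edgeR's quasi-likelihood test. It passed the threshold under every one of the 15 alternative settings, with log2 fold changes between -1.67 and -1.43. Among all tested genes, 3.33% had a more negative log2 fold change. Its span overlaps F53F1.6 on the opposite strand, which had 10 counts in all.

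The gene cut-4 (WBGene00008482) encodes a cuticlin with a ZP domain and lies on chromosome II from 10436144 to 10440087 on the plus strand, with 7 coding exons. It had 8, 8 and 11 counts in the CHX samples and 17, 18 and 15 without CHX, or 20.9, 20.7 and 26.5 CPM on CHX against 55.7, 55.1 and 53.0 CPM without it. The groups did not overlap, and the 3 samples without CHX lay within a few CPM of each other. Non-overlap with a lower level on CHX was seen in 20.2% of all tested genes. The log2 fold change was -1.25 (SE 0.46) with an adjusted p of 0.0457 in edgeR's test, just under the threshold. Only the samples without CHX brought cut-4 past the default low-count filter, so its entry to this test depended on its higher level there. With the looser filter, which its counts in both groups met, the adjusted p was 0.0604 in edgeR's test. Of 14 alternative settings that could give it a value, 1 kept the call. The adjusted p ranged from 0.0464 to 0.135 over these settings, while the log2 fold change stayed between -1.36 and -1.09.

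**Figure D1:**
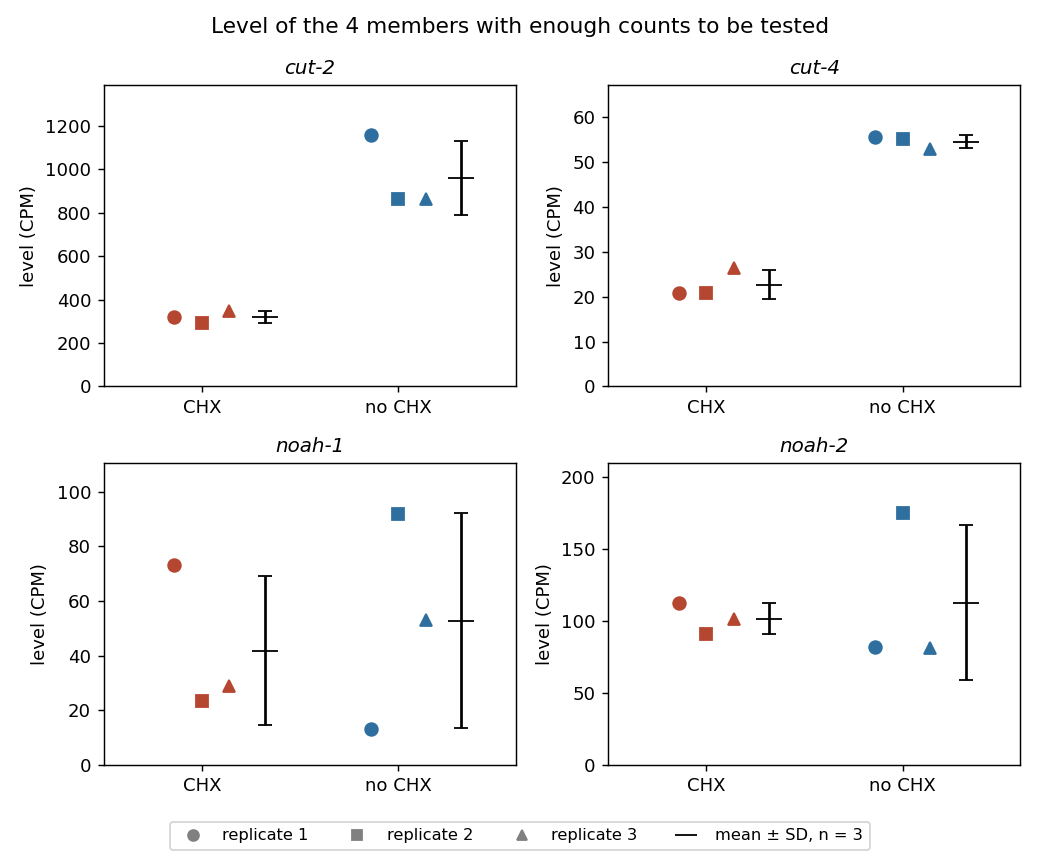
Level in CPM (vertical axis, from 0) of cut-2, cut-4, noah-1 and noah-2 in each of the 3 CHX samples (left) and the 3 samples without CHX (right), with the group mean and SD beside the points. The groups are apart for cut-2 (290 to 346 CPM on CHX against 863 to 1157 CPM without it) and cut-4, and overlap for both noah genes.

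The noah genes encode ZP-domain proteins related to the fly protein NompA, and are known in the worm as parts of the embryonic sheath that are needed for elongation of the embryo and for molting. For noah-2 (WBGene00009926; chromosome IV, 14091254 to 14096617, plus strand, 5 coding exons), the levels were 112, 90.7 and 101 CPM on CHX and 82.0, 175 and 81.3 CPM without it. The CHX samples lay between replicate 2 and the other replicates without CHX, so the groups overlapped. The log2 fold change was -0.16 (SE 0.31, adjusted p 0.74 in edgeR's test). For noah-1 (WBGene00016422; chromosome I, 5874433 to 5878954, minus strand, 8 coding exons), they were 73.1, 23.3 and 28.9 CPM on CHX and 13.1, 91.9 and 53.0 CPM without it. The lowest and the highest of the 6 values both came from the group without CHX. The log2 fold change was -0.35 (SE 0.51, adjusted p 0.655 in edgeR's test). Both fold changes turned positive without no_CHX replicate 2, to 0.34 for noah-1 and 0.30 for noah-2, and neither passed the threshold under any setting.

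Counted together, 2 of the 4 tested members were called lower and 0 higher, beside 14.9% and 10.3% of all tested genes. At an unadjusted p under 0.05 the same 2 passed, and DESeq2 called cut-2 lower and no member higher. The median log2 fold change of the 4 was -0.80, and -0.48 without no_CHX replicate 2. These 4 are the most abundant members, and cut-4 passed the filter on low counts only through the samples without CHX, where it is high. The count and the median thus include a member whose entry depended on the direction, and neither speaks for the other 36.

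**Figure D2:**
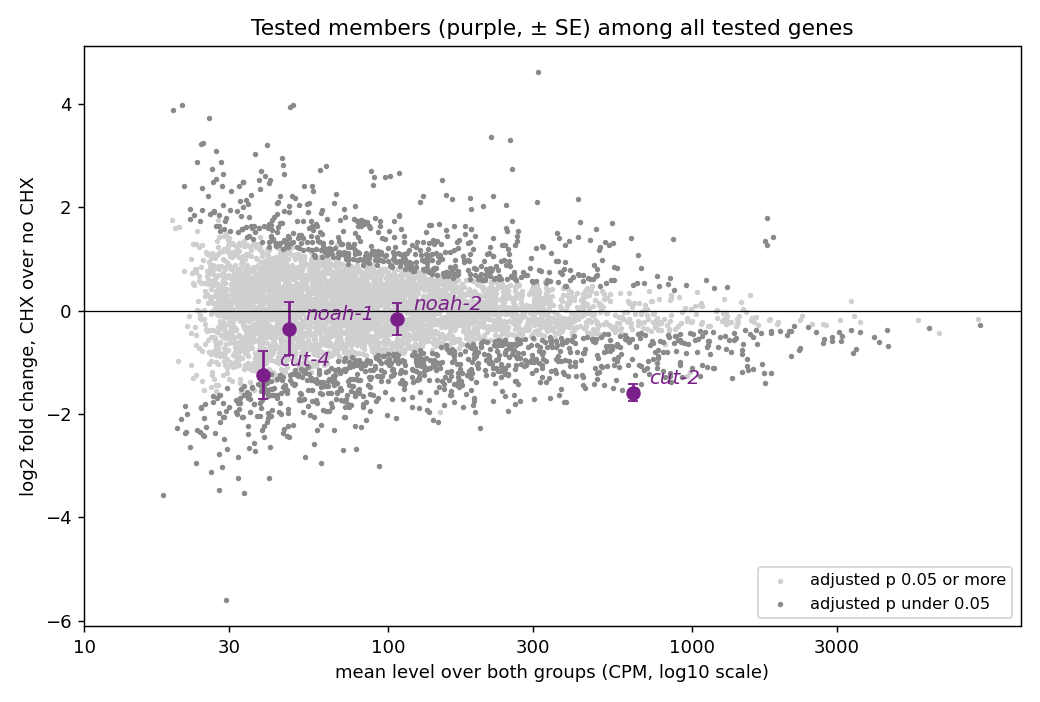
Log2 fold change, CHX over no CHX (vertical axis), against the mean level in CPM (horizontal axis, log10 scale) for the 5641 tested genes, with the 4 tested members in purple and bars of 1 SE. The point of cut-2, at -1.59, lies below most genes of its level, cut-4 lies at -1.25 among genes of low level, and noah-1 and noah-2 lie near 0.

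Levels can be compared between genes once they are divided by coding length. On this scale, in CPM per kilobase, cut-2 stood at 495 on CHX and 1490 without it, far above every other tested member in both groups. Next came noah-2 at 45.6 ± 4.85 on CHX and 50.7 ± 24.1 without CHX (SD, n = 3 each). The level of cut-4 was 14.9 ± 2.14 on CHX and 35.9 ± 0.933 without it, and that of noah-1 was 13.2 ± 8.65 on CHX and 16.7 ± 12.5 without it. On CHX, cut-4 and noah-1 did not differ beyond their spread, and without CHX the same was true of noah-2 and cut-4. Of the untested members, dyf-7 was at 5.58 ± 3.52 on CHX and 20.9 ± 14.4 without it, and cutl-8 at 1.38 ± 2.39 on CHX and 16.8 ± 15.9 without it. Without CHX both thus lay within the spread of noah-1. The order below cut-2 is therefore not resolved in full.

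The 3 members taken by name have each been tied to particular tissues. The gene fbn-1 encodes a large fibrillin-like protein that helps the embryonic epidermis resist mechanical stress. It had 3, 6 and 13 counts on CHX and 8, 5 and 1 without it, and the groups overlapped (ratio of scaled sums 1.21, 95% counting interval 0.594 to 2.56). Its span overlaps that of upp-1, which had 107 counts. The gene dyf-7 encodes a ZP protein that anchors the dendrite tips of amphid sensory neurons. It had 1, 3 and 5 counts on CHX and 13, 2 and 10 without it, a ratio of 0.278 (interval 0.114 to 0.616). Replicate 2 without CHX lay among the CHX samples. Without that replicate, dyf-7 passed the filter only through the remaining samples without CHX, where it was high. The adjusted p of 0.0442 in edgeR's test (log2 fold change -2.33, SE 0.82) therefore depends on that choice and is not support for a lower level. With the looser filter and all samples the adjusted p was 0.109 in the same test. The gene let-653 encodes a mucin-like ZP protein that lines the lumen of the excretory duct and the vulva. It had 1, 0 and 6 counts on CHX and 0, 1 and 0 without it, so that 6 of its 8 counts lay in CHX replicate 3. Counting intervals cover counting error only, not the spread between replicates, and these 3 genes were below the default filter.

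Among the cut genes that mark other stages, counts were all but absent. The genes cut-1 and cut-6 are known for the dauer larva and its alae, and cut-3 for the alae of the first larval stage. All of them had 0 counts in all 6 samples. Within a single library this allows up to 7.22 CPM in CHX replicate 3 and up to 10.6 CPM in no_CHX replicate 3. A limit over the samples of a group together would be lower. The gene cut-5, also tied to alae of those stages, had 1 count, in no_CHX replicate 2. Apart from that count, all cut counts (406 on CHX and 930 without it) came from cut-2 and cut-4.

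The cutl genes were read at very low levels. Of the 29, 19 had a count and 10 had none. Those with none were cutl-1, cutl-2, cutl-7, cutl-9, cutl-10, cutl-13, cutl-17, cutl-21, cutl-25 and cutl-29. All 29 together had 51 counts on CHX and 111 without it, or 31.3, 49.2 and 48.1 CPM on CHX against 138, 153 and 67.2 CPM without it. These sums did not overlap, with replicate 3 the nearest of the samples without CHX.

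The most counted of them was cutl-8 (chromosome I, 8270304 to 8275701, 12 coding exons), with 0, 3 and 0 counts on CHX and 20, 6 and 3 without it. The ratio of scaled sums was 0.0799 (95% counting interval 0.0156 to 0.258), and 20 of the 29 counts without CHX came from replicate 1. With no filter on low counts edgeR's test called it lower (adjusted p 0.00662), while its counts were too low for the default filter. Its span overlaps T01G9.2 on the opposite strand, which had 71 counts, and as no source used here says whether counting used strand, reads of the 2 genes cannot be told apart.

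The remaining cutl genes had 16 counts or fewer over all samples. The gene cutl-23 had 1, 2 and 1 counts on CHX and 5, 6 and 1 without it (ratio of scaled sums 0.257, 95% counting interval 0.0605 to 0.849), and cutl-18 had 0, 2 and 2 on CHX and 4, 4 and 2 without it (0.309, interval 0.0707 to 1.07). In CPM the groups overlapped for cutl-23, through replicate 3 without CHX. For cutl-18 that replicate was at 7.07 CPM and the highest CHX sample at 5.18 CPM. Both had 2 counts, below the floor of 3, so only library scaling set the groups of cutl-18 apart. The gene cutl-15 had 0, 0 and 1 counts on CHX and 0, 9 and 3 without it (0.0643, interval 0.00151 to 0.435), and cutl-12 had 0, 1 and 1 on CHX and 0, 7 and 2 without it (0.172, interval 0.0180 to 0.829). For these 2 genes replicate 2 held most of the counts without CHX and replicate 1 held none. The spans of cutl-23, cutl-18 and cutl-15 each overlap another gene. The genes cutl-24 (9 counts on CHX and 2 without it) and cutl-20 (5 on CHX and 3 without it) had more on CHX, and 7 of the 9 CHX counts of cutl-24 and all 5 of cutl-20 came from CHX replicate 3. The counts on CHX and without it were 6 and 7 for cutl-26, 5 and 7 for cutl-27, 2 and 6 for cutl-28, 3 and 4 for cutl-14, and 2 and 2 for cutl-4. The genes cutl-11, cutl-19, cutl-22, cutl-3, cutl-5, cutl-16 and cutl-6 had 3 counts or fewer in all. Of the 23 untested members with a count, the scaled ratio was below 1 for 16 and above 1 for 7. Equal counts fall below 1 through scaling alone, as for cutl-4 (ratio 0.772). The same split was not made over all untested genes, so it is not read as a trend of the members. With no filter on low counts 1 of the 23 was called lower and 0 were called higher. Of the 13894 genes in that fit, 5.30% were called lower and 4.40% higher. At these counts a difference was not detectable for most of them.

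**Figure D3:**
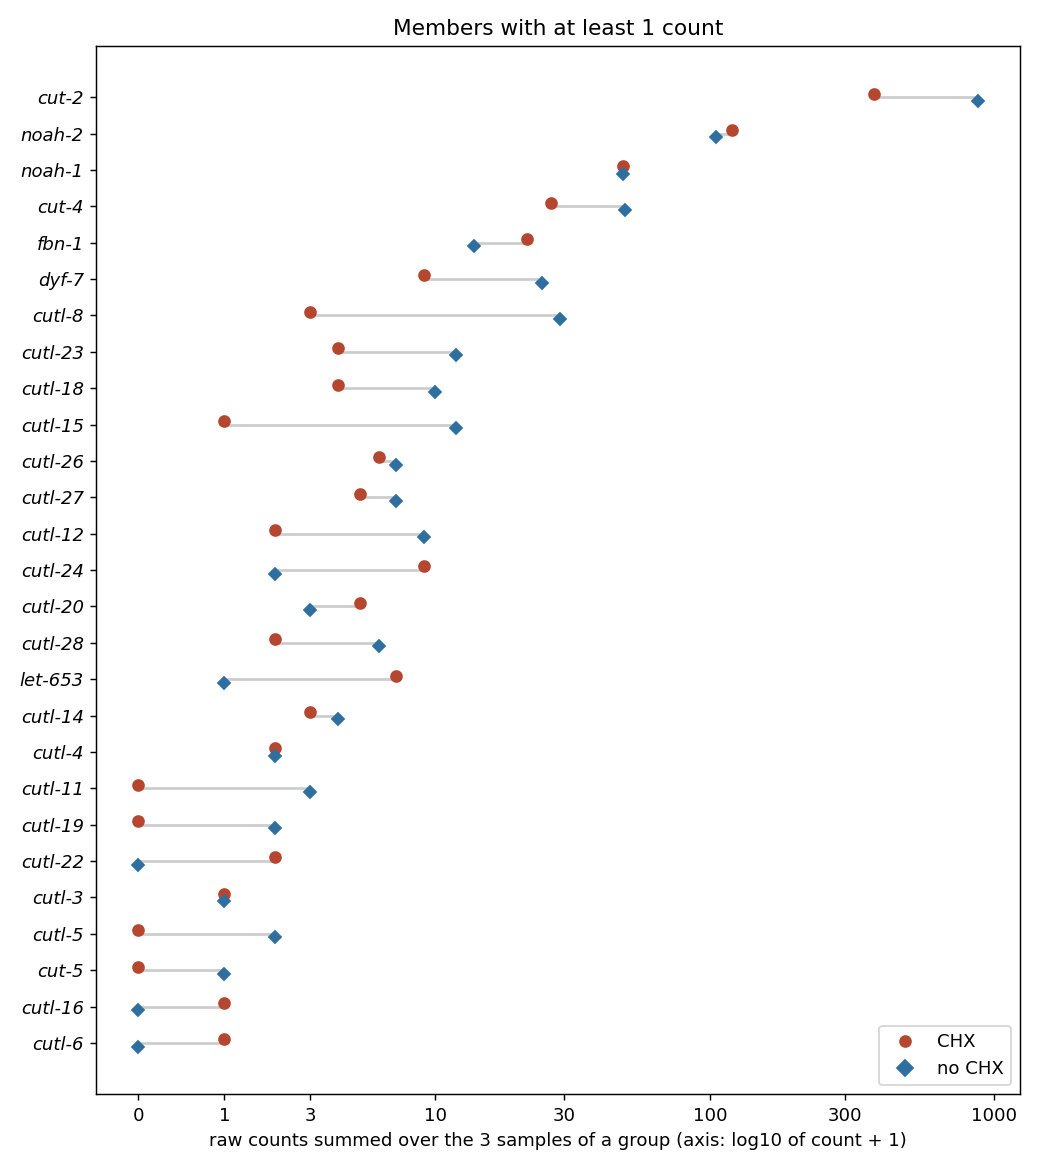
Raw counts of the 27 members with at least 1 count, summed over the 3 samples of a group (horizontal axis, log10 of count + 1), with CHX as circles and no CHX as diamonds. The gene cut-2 has 379 counts on CHX and 879 without it, noah-2 has 120 on CHX and 105 without it, and every cutl gene but cutl-8 has 12 or fewer in either group.

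Members lie on all 6 chromosomes, between 5 and 9 on each, and those with a count are found on each of them. Coding lengths of the 27 members with a count had a median of 1464 bases, and those of the 13 without had a median of 1272. Few members are neighbours. The genes cutl-27 and let-653 lie 2.12 kb apart on chromosome IV with no other counted gene between them, and both had few counts (12 and 8). The genes cutl-28 and cutl-26 lie 10.4 kb apart on the same chromosome, with 8 and 13 counts. On chromosome V, cutl-1 and cut-2 lie 8.89 kb apart with 3 genes between them, and cutl-1 had 0 counts where cut-2 had 1258.

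The highest replicate of each group was the same for the noah genes as for several other matrix genes. On CHX the counts of noah-2 were close (43, 35 and 42), so its ranking there is not resolved. CHX replicate 1 was the highest CHX sample and no_CHX replicate 2 the highest sample without CHX for both noah genes. This pattern was looked for elsewhere after their values were seen. It was present in 11.7% of all tested genes and not in cut-2 or cut-4. Among the related lists it was present in 9 of 12 tested body-shape collagens, 7 of 12 molting genes, 4 of 9 processing genes, 2 of 4 tube partners, 2 of 6 crosslinking genes, 1 of 7 transcription factors and the 1 tested furrow collagen. Among tested cell type markers it was present in 1 of 12 for epidermis and 2 of 3 for glia and the excretory system. The other marker lists had it in 2 of 10 for body wall muscle, 1 of 7 for intestine, 1 of 10 for germline and 0 of 3 for neurons. The gene ptr-4, for a Patched-related membrane protein that takes part in assembling the apical matrix, had 65.3, 20.7 and 24.1 CPM on CHX and 72.1, 141 and 60.1 CPM without it. The strut collagen gene bli-1 had 311, 189 and 127 CPM on CHX and 170, 285 and 120 CPM without it, and the collagen gene sqt-3 had 345, 181 and 156 CPM on CHX and 482, 628 and 477 CPM without it. The part of this replicate spread in the missing call for the noah genes was not tested.

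**Figure D4:**
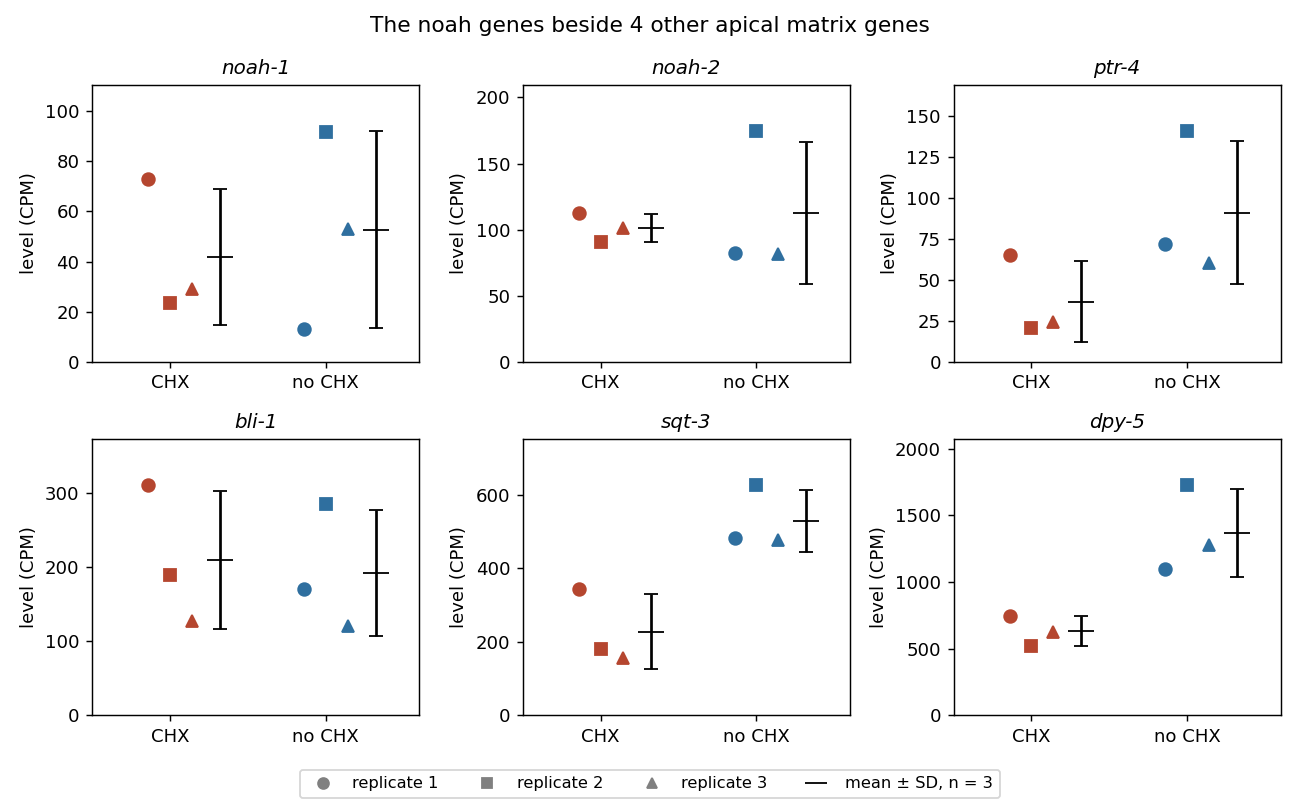
Level in CPM (vertical axes, from 0) of noah-1, noah-2, ptr-4, bli-1, sqt-3 and dpy-5 in each CHX sample (left) and each sample without CHX (right), with group means and SD. Only genes with the pattern are drawn, so CHX replicate 1 (circle) is the highest CHX sample in every panel. Likewise, no_CHX replicate 2 (square) is the highest sample without CHX. The 2 groups are apart for sqt-3 and dpy-5 only.

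Other genes of the apical matrix were read from lists of gene names. Most tested collagens of annuli, struts and body shape were lower. Of 12 tested, 10 were lower and 0 higher on CHX (0 higher also with DESeq2 and at an unadjusted p under 0.05 in edgeR's test). Their log2 fold changes had a median of -1.03. The 2 without a call were the strut collagens bli-1 (log2 fold change 0.11, SE 0.28) and bli-2 (-0.21, SE 0.40), named after their values were seen. The dumpy collagen dpy-13, the most abundant of them, stood at 744 ± 178 CPM on CHX and 1610 ± 38.2 CPM without it (SD, n = 3 each). Next to it, dpy-4 fell 2.42-fold (adjusted p 1.57e-07) and dpy-5 fell 2.17-fold (adjusted p 5.10e-06) in edgeR's test. Only 6 were lower without CHX replicate 3 or without no_CHX replicate 2. Of the 6 furrow collagens, which shape the grooves between annuli, dpy-8 alone could be tested, at 61.1 ± 34.8 CPM on CHX and 60.8 ± 11.2 CPM without it (adjusted p 0.999 in edgeR's test).

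Genes for the modification of matrix proteins were read in a pair of lists. Of 9 tested genes for precursor cleavage, prolyl hydroxylation and folding, 2 were lower and 0 higher, also with DESeq2, against 4 and 0 at an unadjusted p under 0.05 in edgeR's test (median log2 fold change -0.35). The prolyl 4-hydroxylase gene dpy-18 stood at 172 ± 3.07 CPM on CHX and 589 ± 102 CPM without it, a 3.41-fold fall (adjusted p 6.25e-08 in edgeR's test), and pdi-2, for the protein disulfide isomerase that forms a complex with prolyl hydroxylases and the most abundant of the list, fell 1.48-fold. The furin-type protease genes bli-4 (log2 fold change -0.29, SE 0.19) and kpc-1 (-0.32, SE 0.44), named after their values were seen, did not pass. Of 6 tested genes for tyrosine crosslinking, 1 was higher and 1 lower (median -0.45). These were the peroxidase genes skpo-1, at 134 ± 17.9 CPM on CHX and 62.9 ± 36.5 CPM without it, and skpo-2, at 30.5 ± 9.88 CPM on CHX and 68.1 ± 18.6 CPM without it. The skpo-1 call was lost on leaving out CHX replicate 1, CHX replicate 3 or no_CHX replicate 3 (log2 fold change 1.07 in all samples and 0.66 in the last case), and the skpo-2 call under 10 of 14 settings. To pass the default filter, skpo-1 needed CHX samples and skpo-2 needed samples without CHX, in each case the group where it was high. The looser filter was among the settings that lost the skpo-2 call. The peroxidase gene mlt-7, the most abundant of the list, stood at 134 ± 54.1 CPM on CHX and 189 ± 26.9 CPM without it (adjusted p 0.186 in edgeR's test).

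Of 4 tested partners of ZP proteins and tube linings, 1 was higher, 1 lower and 2 without a call (median -0.81). The higher one, egg-6, encodes a leucine-rich repeat protein of the apical surface that is needed in the excretory duct and pore. It stood at 323 ± 43.5 CPM on CHX and 121 ± 20.2 CPM without it, 2.67-fold higher (adjusted p 1.91e-05 in edgeR's test), and was called under all 15 alternatives. The lower one was ptr-4 (log2 fold change -1.32, SE 0.43, adjusted p 0.0241 in edgeR's test). Too few CHX samples passed the default filter, so its entry to the test needed samples without CHX, where it was high. The ptr-4 call held with the looser filter, which its counts in both groups met. Its adjusted p was 0.0540 with DESeq2. On leaving out 1 sample it was 0.104 (CHX replicate 2), 0.118 (CHX replicate 3) and 0.225 (no_CHX replicate 2), with a log2 fold change of -0.86 in the last case and of -2.01 on leaving out CHX replicate 1.

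Of 12 tested genes for molting and release of the old matrix, 7 were lower and 0 higher (median -0.69). The Patched-related gene ptr-18 fell 2.64-fold, the molting gene mlt-8 2.93-fold and the NIMA-type kinase gene nekl-2 3.83-fold, while the cathepsin L gene cpl-1, the most abundant over all samples, stood at 730 ± 92.5 CPM on CHX and 804 ± 74.9 CPM without it. Entry of nekl-2 to the test needed samples without CHX, where it was high, and its call held with the looser filter. Without CHX alone, lrp-1, one of the 7 lower genes, had a mean as high (503 ± 80.2 CPM on CHX and 810 ± 270 CPM without it). The count lower was 4 without CHX replicate 3, and 1 gene, dab-1, was higher under 7 of 15 alternatives and at an unadjusted p under 0.05 in edgeR's test (0 with DESeq2). Of 7 tested epidermal and molting transcription factors, 1 was higher and 1 lower (median -0.08). The period-related gene lin-42, which times the larval stages, fell 1.95-fold. The epidermal zinc finger gene lin-26 rose 3.04-fold (adjusted p 0.0119 in edgeR's test, and 0.0647 without CHX replicate 3). It had 72 counts on CHX (60.5 ± 10.2 CPM) and 18 without it (19.8 ± 1.42 CPM). Only the CHX samples brought lin-26 past the low-count filter, so its entry to the test depended on its higher level there. The chromatin factor gene let-418 was the most abundant of the list, at 542 ± 47.1 CPM on CHX and 572 ± 98.5 CPM without it.

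**Figure D5:**
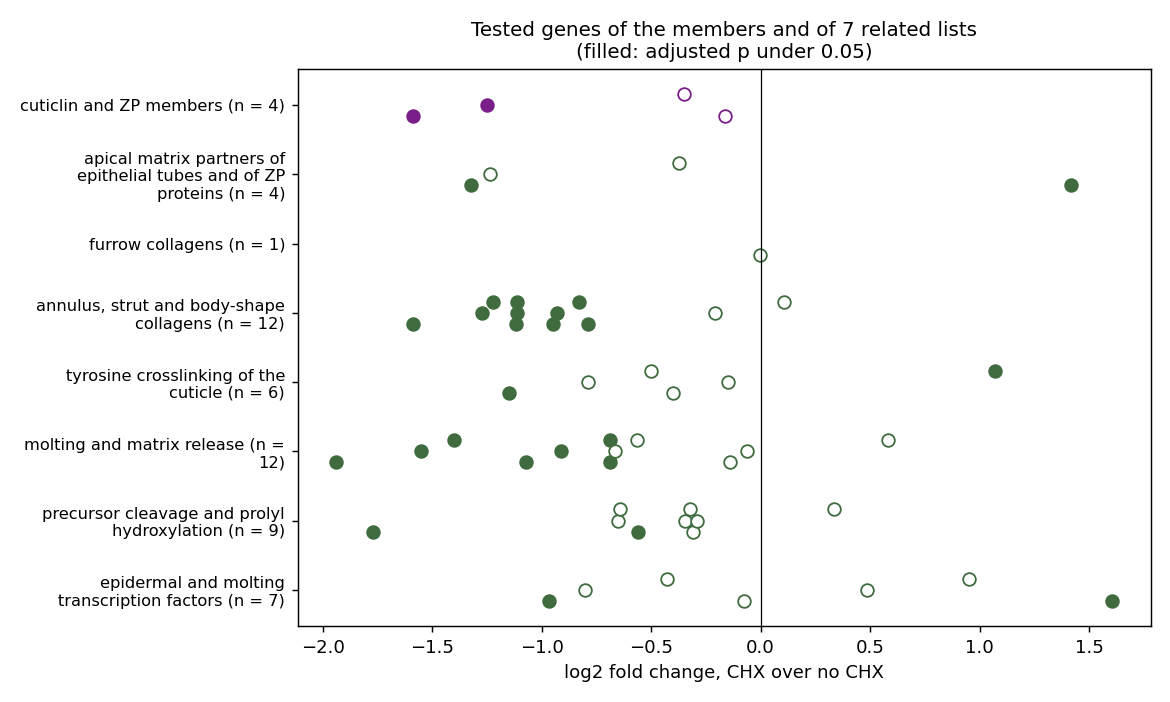
Log2 fold change, CHX over no CHX (horizontal axis), of each tested gene among the members (top, purple) and in 7 related lists (green), with filled points for an adjusted p under 0.05. Called genes lie left of 0 for the members, the body-shape collagens (10 of 12) and the molting genes (7 of 12), and on both sides of 0 for the tube partners, the crosslinking genes and the transcription factors.

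Levels of cell type markers moved between the groups as well. For the 15 epidermal markers found in the table (1 of them, ifa-3, at 0), levels were summed. The sum lay between 3651 and 3813 CPM on CHX and between 5500 and 6406 CPM without it. Of 12 tested, 1 was higher and 3 lower. The higher one was lin-26, also in the list of transcription factors, which passed the filter only through the CHX samples. The median log2 fold change of the 12 was -0.20. The 3 lower ones, named after their values were seen, were let-805 (982 ± 129 CPM on CHX and 2062 ± 348 CPM without it), mup-4 (486 ± 73.6 CPM on CHX and 1043 ± 97.5 CPM without it) and vab-10 (587 ± 32.3 CPM on CHX and 1023 ± 199.7 CPM without it), which carry much of the sum. As a share of that sum, cut-2 came to 8.42%, 7.79% and 9.49% in the CHX samples and 18.1%, 15.2% and 15.7% without CHX. For cut-4 the values were 0.548%, 0.557% and 0.725% on CHX and 0.870%, 0.970% and 0.964% without it. Body wall muscle markers were lower for 10 of 10 tested (sums of 7842 to 8246 CPM on CHX and 10959 to 15211 CPM without it) and intestinal markers for 5 of 7 (5726 to 6064 CPM on CHX and 9311 to 9943 CPM without it). Of 10 tested germline markers 5 were higher and 1 lower (5717 to 6073 CPM on CHX and 4431 to 4934 CPM without it). In edgeR's test no tested marker was called, also at an unadjusted p under 0.05, among 3 for glia and the excretory system (142 to 209 CPM on CHX and 121 to 196 CPM without it) and 3 for neurons (316 to 414 CPM on CHX and 380 to 416 CPM without it). The part of these shifts between tissues in the cuticlin values was not tested.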

How the data were processed

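The authors deposited raw counts of reads over the coding region of 1 transcript per gene, with WBcel235 coordinates per the file headers. Total RNA was taken up in Trizol, freed of ribosomal RNA with RNase H and turned into libraries with a SMARTER kit, per the labels' protocols. DESeq2 and WBcel235 are named in the submitters' processing notes. Not given in the sources used here are the aligner, the counter, whether strand was used, and how multiply matching reads were treated. Without molecular identifiers, intervals and floors cover counting error only.

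Groups and replicate numbers came from the sample titles. The main test was that of edgeR 4.0.16 in R 4.3.3. After filterByExpr at its defaults (a count of 10, a total of 15), libraries were scaled with TMM factors and genes tested with robust quasi-likelihood fits, with Benjamini-Hochberg adjustment over all 5641 tested genes and a threshold of 0.05. Standard errors are the absolute log2 fold change over the square root of F. The fit was tested on simulated counts. Ratios of summed counts are scaled to effective library sizes, with exact 95% binomial intervals. Alternatives used DESeq2 1.42.0 and limma 3.58.1. Lengths and exons were read from Ensembl gene models of this build. For cut-2, let-653 and cut-6 they came from a transcript with the same coding sequence name. Figures were drawn with matplotlib 3.10.9. No sequence or genome table was used here.

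All members were to be named, with values per sample for called or abundant ones, and for each related list the most abundant gene and up to 3 called genes, by lowest p. The members and lists were chosen with earlier results of these data known.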

Additional observations from a re-analysis of the deposited data

How the results depend on the processing

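Of the 15 alternative settings, all called cut-2 lower and none called a member higher. The number of members called lower was 1 with library totals, upper-quartile factors, DESeq2, limma-voom, the stricter filter (20 counts in 3 samples), the looser filter (5 counts) and the replicate block. It was 2 with DESeq2 size factors (cut-2 and cut-4) and with no filter (cut-2 and cutl-8). Leaving out 1 sample gave 1 to 2 members lower, the second being dyf-7 without no_CHX replicate 2. In that fit dyf-7 passed the filter only through the remaining samples without CHX. On leaving out 1 sample the log2 fold change of noah-1 ranged from -1.01 to 0.34 and that of noah-2 from -0.36 to 0.30, each positive only without no_CHX replicate 2. Over all genes, leaving out 1 sample gave 383 to 544 higher and 601 to 804 lower, against 579 and 840 with all samples. With library totals the counts were 851 higher and 605 lower, and the median over tested genes moved to 0.18 on the log2 scale, from 0.02. The cause of these changes was not tested. Replicate numbers did not pair the samples: deviations of same-numbered samples correlated at -0.05, -0.03 and -0.01, and the replicate block left 494 genes higher and 731 lower. With all samples, 36 of the 40 members had too few counts for the default filter, and whether depth or absent expression sets this was not tested.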
